A study of Mus musculus with 2 samples.

Results

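The genes of the RNA exosome, of mRNA decapping and of mRNA surveillance were followed in mouse embryos injected with an siRNA against Dnmt1 (siDnmt1) or with a scrambled siRNA. The series asks how Dnmt1, which copies DNA methylation after replication, represses retroelements in early embryos. Members were chosen by symbol. They were all symbols that start with Exosc, those that start with Lsm, Smg or Edc followed by a digit, and 16 named genes from Upf1 to Ttc37. The rule found 46 genes among the 23418 rows of the table, and 35 of them averaged 20 counts or more over the pair of libraries. All embryos were of the C57BL/6 background and at the 4/8-cell stage. Each group was 1 library from a pool of 20 embryos, so no difference has a replicate check, no p-value was computed, and each comparison concerns these 2 libraries. Pooling also hides differences between embryos, and fewer cells that hold a transcript cannot be told apart from less RNA per cell.

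Messenger RNA is removed by a small set of machines. The exosome is a barrel of a ring and a cap without catalytic activity of their own, which threads RNA to the nucleases Dis3 and Exosc10 and degrades it from the 3′ end. Decapping by Dcp2 and its partners opens the 5′ end to the exonuclease Xrn1. Surveillance by the Upf and Smg proteins destroys messages with a premature stop codon, while Pelo and Hbs1l release stalled ribosomes and the SKI complex passes their mRNA to the exosome. In the early mouse embryo, maternal mRNA stored in the oocyte is cleared while the zygotic genome is switched on, so these machines act on a changing pool of transcripts.

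The libraries held 12236615 (siDnmt1) and 11675483 counts (scrambled), of which Rn45s, the ribosomal RNA precursor, took 37.3% and 29.9%. The 46 members held 28418 and 25767 counts, or 0.371% and 0.315% of the counts other than Rn45s. Dnmt1, the siRNA target, had 687 counts against 847 and was 1.23-fold lower (95% counting interval 1.11 to 1.37). Of 8 markers of the early embryo, 7 had counts in both libraries (sums of 6414 and 8002), and Sox2 was at 0 in both. Oocyte markers summed to 339 and 411 counts, with 7 and 8 of 8 detected. Within both lists single markers differed in opposite directions. Carm1 had 124 and 37 counts and Dppa3 70 and 194, and the oocyte markers Zp2 and Zp3 had 39 and 20 and 13 and 42. Whether the pools held the same mix of stages was not tested. All 8 markers of cumulus and granulosa cells were at 0 in both libraries, and of 6 blood and fibroblast markers Ptprc alone was detected (16 and 6 counts).

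Among the 35 members compared, the siDnmt1 count was higher by 2-fold or more for 4 and lower by 2-fold or more for 7, which left 24 within 2-fold. The split moved with the scaling, to 3 higher and 8 lower with equal library totals and to 6 and 6 with equal totals without Rn45s. The shares of all genes compared moved as well, to 11.1% higher and 18.1% lower with equal totals. Without Rn45s they were 14.4% and 14.9%. The threshold was set on log2((siDnmt1 + 5)/(scrambled + 5)), called the log2 ratio here, which understates the difference of genes with few counts. By the same rule 12.5% of the 7315 genes compared were higher and 16.7% were lower, against 11.4% and 20.0% of the members, so the members as a whole were called about as often as genes in general. Their median log2 ratio was -0.16, and that of all genes was -0.02. The genes at least 2-fold higher were Hbs1l, Ttc37, Smg8 and Dis3. Those at least 2-fold lower were Exosc2, Exosc3, Exosc5, Exosc7, Exosc8, Lsm2 and Upf3b. The results are given by role, and the 2 sets share no role as grouped here. That separation depends on how the roles were split, which was chosen with earlier results of these data known. With Upf and Smg genes in 1 group, 1 gene was higher (Smg8) and 1 lower (Upf3b). The exosome likewise held Dis3, which was higher, and 5 cap and ring genes that were lower.

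**Figure D1:**
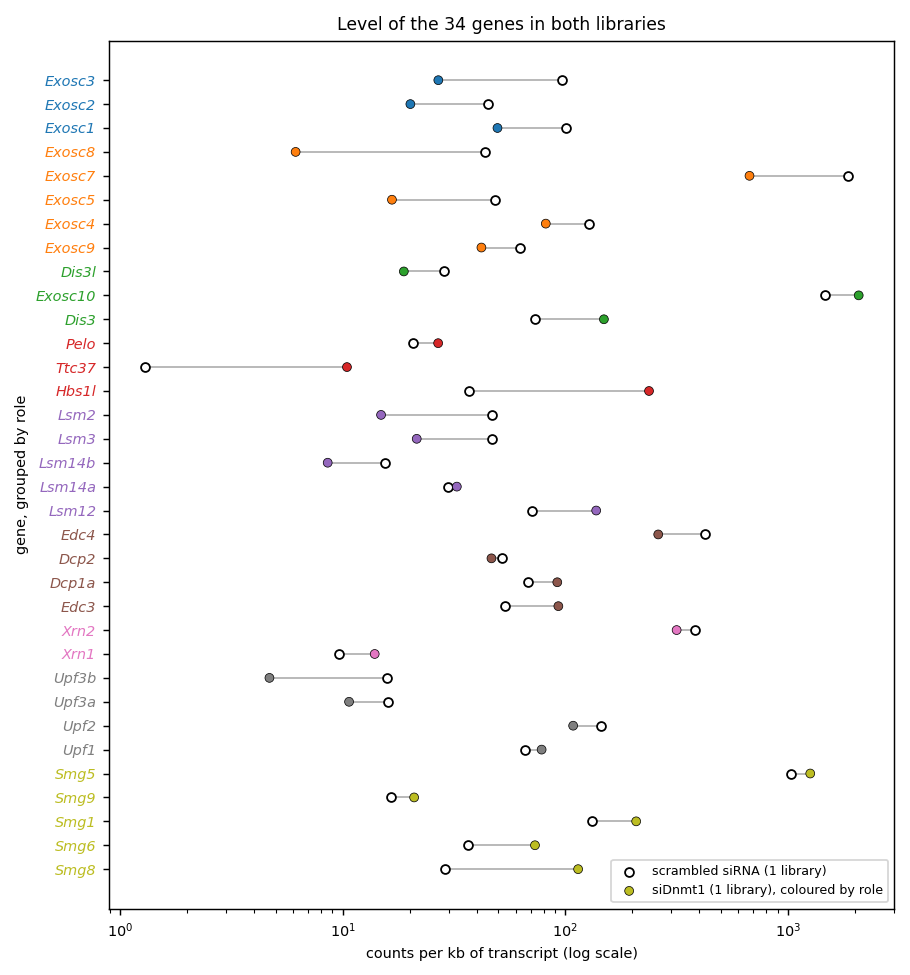
Level of 34 members in the siDnmt1 library (filled circles, coloured by role) and the scrambled library (open circles), as counts per kb of the longest coding transcript on a log scale. Exosc10, Exosc7 and Smg5 had the highest levels of those plotted in both libraries, and all 8 cap and ring genes of the exosome had the lower level in siDnmt1.

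The upstream sequence of the genes with the largest differences is shown because Dnmt1 copies methylation at CG dinucleotides. The letters show how many such sites lie in the bases printed. No methylation was measured in these samples. RefSeq on GRCm38.p6 gave a window of 250 bases before the start for 38 of the 46 members, and the first listed start was used. Shown, from the 35 members compared, are the 3 with the highest and the 3 with the lowest log2 ratios whose window, outside annotated exons, still held at least 70 bases. Capitals mark each CG, which reads the same on both strands. The bases are those of Hbs1l (chr10:21295729-21295978, plus strand, 19 CG), Ttc37 (chr13:76098661-76098733, plus strand, 6 CG) and Smg8 (chr11:87086778-87087027, minus strand, 12 CG), all higher in siDnmt1. Exosc8 (chr3:54735394-54735538, minus strand, 21 CG), Exosc3 (chr4:45320630-45320866, minus strand, 6 CG) and Upf3b (chrX:37110323-37110572, minus strand, 16 CG) were lower. For Ttc37, Exosc8 and Exosc3 only part of the window is printed, and their whole windows held 13, 33 and 7 CG. The printed bases of Exosc8 and Exosc3 end 29 and 13 bases short of the start.
Hbs1l: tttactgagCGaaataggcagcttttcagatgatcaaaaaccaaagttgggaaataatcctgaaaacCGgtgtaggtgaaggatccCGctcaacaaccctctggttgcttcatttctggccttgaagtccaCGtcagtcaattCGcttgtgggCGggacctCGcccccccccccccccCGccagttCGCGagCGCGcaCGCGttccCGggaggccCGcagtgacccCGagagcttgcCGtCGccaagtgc
Ttc37: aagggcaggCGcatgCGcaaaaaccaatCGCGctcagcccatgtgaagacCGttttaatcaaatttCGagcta
Smg8: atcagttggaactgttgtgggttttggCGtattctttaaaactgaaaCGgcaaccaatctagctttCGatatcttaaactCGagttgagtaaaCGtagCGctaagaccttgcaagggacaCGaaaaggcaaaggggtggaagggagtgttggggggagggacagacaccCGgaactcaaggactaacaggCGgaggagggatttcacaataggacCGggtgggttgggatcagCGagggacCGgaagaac
Exosc8: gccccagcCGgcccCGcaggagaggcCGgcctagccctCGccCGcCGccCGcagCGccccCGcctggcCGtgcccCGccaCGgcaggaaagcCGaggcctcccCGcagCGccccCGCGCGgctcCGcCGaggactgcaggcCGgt
Exosc3: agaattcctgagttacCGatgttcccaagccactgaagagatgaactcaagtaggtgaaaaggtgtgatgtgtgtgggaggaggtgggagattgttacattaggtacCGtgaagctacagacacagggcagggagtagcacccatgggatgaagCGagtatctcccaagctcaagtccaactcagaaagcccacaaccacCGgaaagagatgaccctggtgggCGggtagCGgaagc
Upf3b: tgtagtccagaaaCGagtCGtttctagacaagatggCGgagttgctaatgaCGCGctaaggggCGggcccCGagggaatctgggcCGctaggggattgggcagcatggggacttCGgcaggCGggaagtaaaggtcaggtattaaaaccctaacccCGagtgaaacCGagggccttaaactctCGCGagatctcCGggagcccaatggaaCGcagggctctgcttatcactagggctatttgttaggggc

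The number of CG overlapped between members that were higher and members that were lower. Over the whole 250 bases the 4 members that were higher had 12 to 24 CG (median 16.0), the 7 that were lower had 7 to 33 (median 16.0), and the 19 within 2-fold with a window had 5 to 41 (median 23.0). Among 5552 of the genes compared that had a window, the median was 17.0. Each of the 38 member windows held at least 5 CG. The letters GGGCGG, on either strand and including a CG, occurred in 63.3% of the 30 windows of members compared and in 63.2% of the windows of genes compared. CCAAT was in 40.0% and 37.1%. TATAAA and CCGGAAGT, the latter also with a CG, were in 0 of the 30 windows and in 5.39% and 7.37% of the windows of genes compared.

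The cap and ring subunits of the exosome had lower counts in siDnmt1 throughout. The cap is made of Exosc1, Exosc2 and Exosc3, RNA-binding proteins on top of the barrel, and the ring of Exosc4 to Exosc9. All 8 of these genes with enough counts were lower in siDnmt1, as were 3718 of the 7315 genes compared. Of the 8, 5 were past the threshold, against 16.7% of all genes and 35.3% of genes with transcripts under 2000 nt. In that length class, where 7 of the 8 lie, the median log2 ratio of all genes was -0.60. The median of the 8 was -1.22. After the trend of log2 ratios with transcript length was removed, the median was -0.67 and 1 of the 5, Exosc8, was still past the threshold. Exosc3 had 29 counts in siDnmt1 and 104 in the scrambled library and was 3.59-fold lower (2.36 to 5.62). Exosc2 had 34 and 76 counts (2.24-fold lower, 1.47 to 3.46). Exosc1 had 114 and 231 counts (2.03-fold lower, 1.61 to 2.56), and its log2 ratio of -0.99 lay just inside the threshold.

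In the ring, Exosc8 differed most. It had 8 counts against 57, a ratio of 7.12 (interval of 3.38 to 17.3-fold lower), and its log2 ratio of -2.25 was reached or undercut by 3.24% of the genes compared. Exosc7 carried most of the ring's counts, with 709 in siDnmt1 and 1969 in the scrambled library, and was 2.78-fold lower (2.55 to 3.03). Its narrow interval reflects those counts. Exosc5 had 28 and 81 counts (2.89-fold lower, 1.86 to 4.62). Exosc4 with 147 and 230 counts (1.56-fold lower, 1.27 to 1.94) and Exosc9 with 68 and 101 (1.49-fold lower, 1.08 to 2.05) were closer to equal. Exosc6 had 4 and 9 counts, too few to compare, and all 1326 bases of its annotated exon are shared with Aars on the same strand.

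Of the nucleases that the barrel feeds, Exosc10 and Dis3 had higher counts in siDnmt1 and Dis3l a lower count. Exosc10, the nuclear 3′ exonuclease, had 5813 counts in siDnmt1 and 4098 in the scrambled library and was 1.42-fold higher (1.36 to 1.48). Dis3, the main nuclease of the nuclear exosome, had 769 and 378 counts and was 2.03-fold higher (1.80 to 2.31), with a log2 ratio of 1.01 at the edge of the threshold. Dis3l, its cytoplasmic counterpart, had 69 and 105 counts (1.52-fold lower, 1.11 to 2.09). Dis3l2, which degrades uridylated RNA without the exosome, had 0 counts against 15, at least 5.0-fold lower when the 0 is set at a floor of 3 counts for the library. This floor leaves out the counting error of the 15, with which the 95% bound is 3.59-fold, and the gene was under the minimum for comparison. Summed over all Exosc genes the libraries held 6954 and 6956 counts, but Exosc10 took 83.6% of them in siDnmt1 and 58.9% in the scrambled library, and Exosc7 took 10.2% and 28.3%. Per kb of transcript, Exosc10 had 2084 counts in siDnmt1 and 1469 in the scrambled library, and Exosc7 had 673 and 1870. The order of these genes' levels therefore differed between the libraries, while Exosc8 had the lowest level of the 11 exosome genes compared in siDnmt1 (6.15 per kb) and Dis3l in the scrambled library (28.7 per kb).

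**Figure D2:**
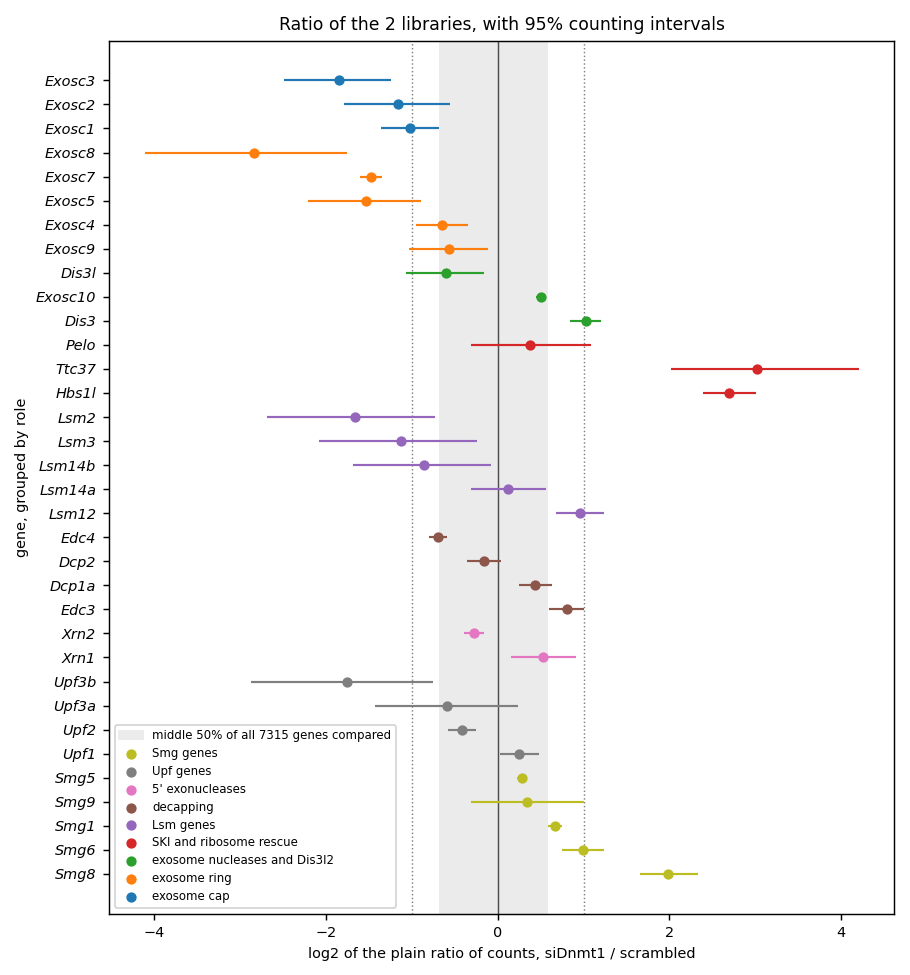
Plain ratio of counts on a log2 scale for 34 members, with horizontal lines for 95% counting intervals, a grey band for the middle 50% of all 7315 genes compared and dotted lines at 2-fold. The cap and ring genes lie left of 0, and Hbs1l, Ttc37 and Smg8 lie farthest right.

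The highest ratios of the members compared were those of Hbs1l, of ribosome rescue, and Ttc37, of the SKI complex, which unwinds mRNA into the cytoplasmic exosome. Hbs1l, a GTPase that works with Pelo and from which splicing also makes a protein that links SKI to the exosome, had 665 counts in siDnmt1 and 103 in the scrambled library. It was 6.46-fold higher (5.24 to 8.02), and its log2 ratio of 2.63 equalled or exceeded that of 98.9% of genes. The table does not separate its isoforms. Ttc37, the scaffold of the SKI complex, had 73 counts and 9 and was 8.11-fold higher (4.05 to 18.4). Skiv2l, the SKI helicase, had 15 and 20 counts, under the minimum for comparison, and its interval (1.33-fold lower, 0.649 to 2.80) includes equality, so no direction can be read from it. Pelo, which recognises ribosomes with an empty A site, had 43 and 33 counts (1.30-fold higher, 0.809 to 2.12), an interval that includes equality. Exons of other annotated genes share 67.1% of the exonic bases of Pelo.

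The Lsm genes were sparse. Lsm1 to Lsm7 form the cytoplasmic ring that binds the 3′ end of deadenylated mRNA and promotes decapping, and Lsm2 to Lsm7 are shared with the nuclear ring on U6 RNA. Of these 7 genes 2 had enough counts. Lsm2 had 13 and 41 counts (3.15-fold lower, 1.66 to 6.41). Lsm3 had 16 and 35 (2.19-fold lower, 1.18 to 4.23), with a log2 ratio of -0.93 inside the threshold. Below the minimum, Lsm4 had 3 counts in siDnmt1 and 25 in the scrambled library and Lsm6 had 9 and 22. Lsm1, Lsm5 and Lsm7 had 1 count each in siDnmt1 and 0 in the scrambled library. The 4 ring genes with more than 1 count in either library had the lower count in siDnmt1, as did 3718 of the 7315 genes compared. With the trend on transcript length removed, Lsm2 came to -0.20 and Lsm3 to 0.36. For Lsm1, Lsm5 and Lsm7 no direction can be read. Lsm8, the subunit particular to the nuclear ring, was not analysed here.

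The other Lsm genes have roles outside these rings. Lsm12 had 311 and 160 counts and was 1.94-fold higher (1.60 to 2.37). Lsm14a, a P-body protein that represses translation, had 96 and 88 counts (1.09-fold higher, 0.808 to 1.47). Its paralog Lsm14b, known from oocytes, had 22 and 40 counts (1.82-fold lower, 1.05 to 3.21). Per kb of transcript Lsm14a had 32.6 and 29.9 counts and Lsm14b 8.57 and 15.6, so Lsm14a had the higher level of the pair in both libraries. Of the components of the U7 particle for histone mRNA, Lsm11 had 11 counts in each library and Lsm10 had 0.

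Decapping genes differed by less than 2-fold in either direction. Dcp2, the decapping enzyme, had 402 and 450 counts (1.12-fold lower, 0.976 to 1.28), an interval that includes equality. Its activator Dcp1a had 514 and 379 counts and was 1.36-fold higher (1.19 to 1.55), while the paralog Dcp1b had 0 counts in both libraries. The enhancers of decapping lay in opposite directions. Edc3, a scaffold of P-bodies, had 532 and 305 counts (1.74-fold higher, 1.51 to 2.01), and Edc4, which joins Dcp1a and Dcp2, had 1252 and 2023 (1.62-fold lower, 1.51 to 1.74). Of the exonucleases that follow, Xrn1, which degrades decapped mRNA in the cytoplasm, had 143 and 99 counts (1.44-fold higher, 1.11 to 1.89). Xrn2, its nuclear counterpart in transcription termination, had 1088 and 1321 (1.21-fold lower, 1.12 to 1.32). Per kb, Xrn2 stood at 317 and 385 counts and Xrn1 at 13.9 and 9.65.

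In nonsense-mediated decay, the 5 Smg genes described here had the higher count in siDnmt1, and 3 of 4 Upf genes the lower. Of the 7315 genes compared, 3560 had the higher count in siDnmt1 and 3718 the lower. With so few genes in each group, the split was not tested as a difference between Smg and Upf genes. The median log2 ratio was 0.49 over the Smg genes compared and -0.45 over the Upf genes. Smg8, an inhibitory subunit of the Smg1 kinase complex, had 368 counts in siDnmt1 and 93 in the scrambled library and was 3.96-fold higher (3.14 to 5.02). Smg1, the kinase that phosphorylates Upf1, had 3243 and 2044 counts (1.59-fold higher, 1.50 to 1.68). Smg9, the partner of Smg8, had 47 and 37 (1.27-fold higher, 0.808 to 2.01). The 3 genes of this complex all had higher counts in siDnmt1, and for Smg9 the interval includes equality.

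Smg6, the endonuclease that cuts the target mRNA, had 428 and 215 counts (1.99-fold higher, 1.69 to 2.36), with a log2 ratio of 0.98 inside the threshold. Smg5, an adaptor that binds phosphorylated Upf1, had 5614 and 4600 counts (1.22-fold higher, 1.17 to 1.27), the most of the Smg genes described. Per kb of transcript it stood at 1262 and 1034 counts.

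Upf1, the RNA helicase at the centre of the pathway, had 362 and 304 counts (1.19-fold higher, 1.02 to 1.39). Upf2, which joins Upf1 to the Upf3 proteins, had 562 and 750 (1.33-fold lower, 1.19 to 1.49). Upf3b, the X-linked link to the exon junction complex, had 11 counts in siDnmt1 and 37 in the scrambled library and was 3.36-fold lower (1.68 to 7.31). Its paralog Upf3a had 22 and 33 (1.50-fold lower, 0.849 to 2.70). Per kb the paralogs stood level in the scrambled library, at 15.8 for Upf3b and 16.0 for Upf3a, and at 4.69 and 10.7 in siDnmt1. No sex was recorded for the pooled embryos.

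Log2 ratios were lower for short transcripts across the whole table, and 6 of the 7 members that were lower by 2-fold or more had transcripts under 2000 nt. Over the 35 members the log2 ratio had a Spearman correlation of 0.64 with transcript length, and over 7270 genes compared with a length it was 0.26. These are correlations across genes of the same 2 libraries, and genes are not independent replicates. Of 10 members under 2000 nt, 6 passed the threshold downward and 0 upward, and their median log2 ratio was -1.20. Among all 1260 genes of that length 35.3% were at least 2-fold lower, with a median of -0.60. The 13 members of at least 4000 nt had a median of 0.43, against 0.18 for the 3043 genes of that class.

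**Figure D3:**
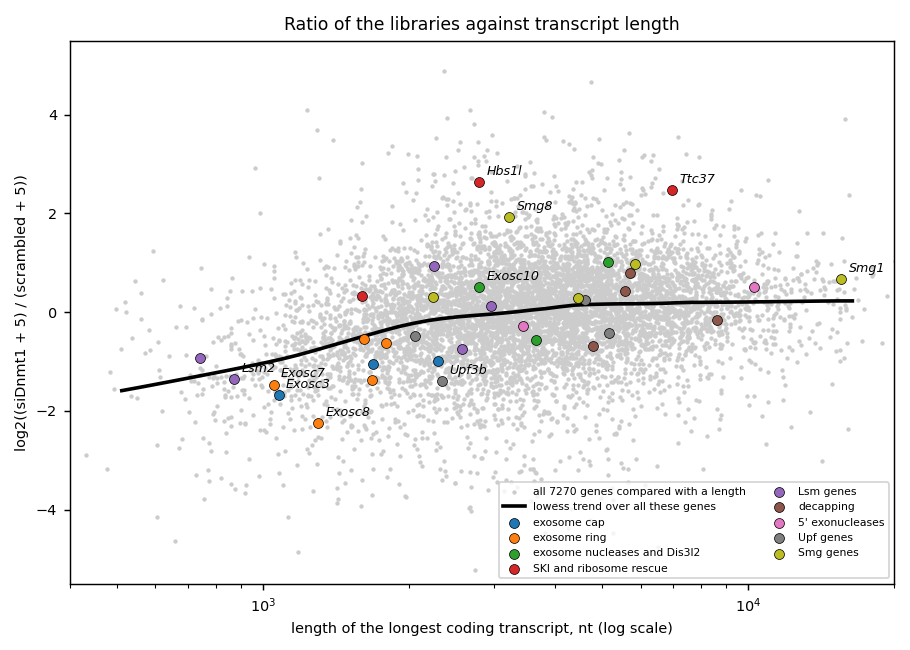
Log2 ratio against the length of the longest coding transcript (log scale) for 7270 genes compared (grey) and 34 members (coloured by role), with the lowess trend over all these genes. Exosome cap and ring genes sit at 1053 to 2296 nt, where the trend is below 0, and Hbs1l, Ttc37 and Smg8 lie above it.

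After the trend was removed, 4 members were past the threshold upward and 2 downward, against 12.8% and 13.7% of genes. Hbs1l (2.69), Ttc37 (2.29) and Smg8 (1.94) kept log2 ratios near their earlier values, and Lsm12 (1.09) passed the threshold while Dis3 (0.85) dropped below it. Exosc8 (-1.50) and Upf3b (-1.26) remained lower. The cap and ring genes were all still below 0, from -1.50 for Exosc8 to -0.05 for Exosc9, but their median was -0.67, and Exosc2, Exosc3, Exosc5 and Exosc7 were inside the threshold. Lsm2 came to -0.20 and Lsm3 to 0.36. The part of length in the exosome result was not tested further, and the trend was fitted with the members included.

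**Figure D4:**
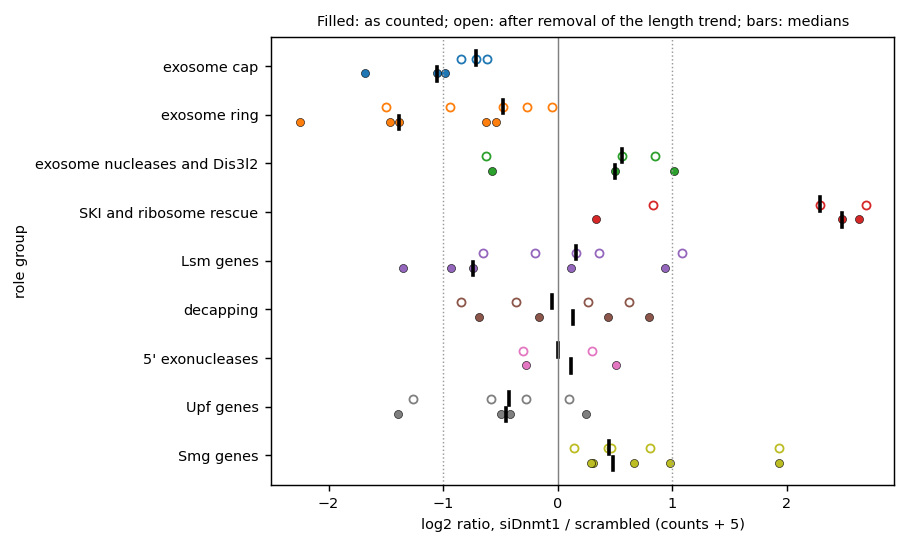
Log2 ratio of 34 members by role group, as counted (filled) and after removal of the length trend (open), with black bars for the medians of all members compared in the group. The ring median moved from -1.38 to -0.48 and that of the Lsm genes from -0.74 to 0.16, while the median of the SKI and ribosome rescue genes stayed near its place (2.48 and 2.29).

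Partners of these machines outside the rule were examined in 4 lists. By list, 0% to 14.3% of the genes compared passed the threshold upward and 0% to 16.7% downward, against 12.5% and 16.7% of all genes. The lists were thus called about as often as genes in general, or less often. Of 12 exosome cofactors compared, 0 passed the threshold upward and 2 downward, and the median log2 ratio was -0.03. C1d, a cofactor that binds Exosc10, had 1 count in siDnmt1 and 56 in the scrambled library, 56.0-fold lower by the plain ratio (9.65 to 2251). Wdr61, the remaining SKI subunit, had 62 and 149 counts (2.40-fold lower, 1.78 to 3.29), so Ttc37 and Wdr61 lay in opposite directions. Skiv2l2, the nuclear helicase of the exosome, had 680 and 384 (1.77-fold higher, 1.56 to 2.01). Zcchc6, a uridyltransferase that marks mRNA for decay, had 1048 and 540 (1.94-fold higher, 1.75 to 2.16).

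Among 7 decapping activators and cap enzymes compared, 1 was higher and 1 lower, with a median of 0.29. Zfp36, which brings decay factors to AU-rich mRNA, had 89 and 27 counts (3.30-fold higher, 2.12 to 5.28), and Eif4enif1, a binder of the cap protein Eif4e, 198 and 120 (1.65-fold higher, 1.31 to 2.09). The Nudix hydrolase gene Nudt3 had 151 and 387 (2.56-fold lower, 2.12 to 3.11), and Eif4e had 2145 and 3063 (1.43-fold lower, 1.35 to 1.51).

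Of 16 genes of the exon junction complex and of translation termination, 2 were higher and 1 lower, with a median of 0.05. Rbm8a, a core subunit of the junction complex, had 263 and 1050 counts (3.99-fold lower, 3.48 to 4.59), and its helicase Eif4a3 had 4270 and 8439 (1.98-fold lower, 1.90 to 2.05). Ncbp1, the large subunit of the nuclear cap-binding complex, had 7178 and 2773 (2.59-fold higher, 2.48 to 2.71). Sap18 had 90 and 39 (2.31-fold higher, 1.57 to 3.45).

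Among 12 genes of stalled ribosome quality control, 1 was higher and 0 lower, with a median of 0.31. Abce1, the ATPase that splits ribosomes after Pelo has bound, had 1852 and 766 counts (2.42-fold higher, 2.22 to 2.63). Ltn1, the ubiquitin ligase of the split large subunit, had 661 and 336 (1.97-fold higher, 1.72 to 2.25). Ascc1 had 23 and 48 (2.09-fold lower, 1.24 to 3.59) and Gcn1l1, a sensor of collided ribosomes, 530 and 830 (1.57-fold lower, 1.40 to 1.75).

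The intervals cover counting error alone. In both libraries even counts were more frequent than odd ones: at even values from 4 to 30 the number of genes was a median of 1.05 (siDnmt1) and 1.07 times (scrambled) the mean of the neighbouring odd values. The cause was not tested. With both counts of each gene set to 50% before the interval was taken, 24 of the 35 members still had an interval that excluded equality, against 30 with the counts as deposited. All 11 members past the threshold were among the 24, which the threshold and the filter favour. The same share over all genes compared was not taken, so these counts do not set the members apart from genes in general. Exons of another annotated gene overlapped those of 16 of the 35 members, Hbs1l, Dis3, Exosc2, Exosc3, Exosc5 and Exosc8 included, at 2.05% to 12.4% of the exonic bases of these 6. Without a stated strand setting, reads of such genes cannot be assigned with certainty. Of the members compared, 7 had a transcript of another symbol that matched theirs at 90% identity or more over at least 300 bases. For Dis3, Edc3, Exosc9 and Pelo the match was to genes already counted as overlapping. For Dcp1a, Hbs1l and Lsm12 it was to processed pseudogenes, 3 of them for Hbs1l. Counts of these 7 members are uncertain in the same way.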

How the data were processed

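RNA captured on oligo-dT beads from 2 pools of embryos was turned into adapter-tagged cDNA, amplified by 20 cycles of PCR and sequenced from both ends, per the labels' protocols. No molecular identifiers are described. The authors deposited 1 table of counts per gene symbol (23418 rows), in which each library has a column. The submitters' processing notes name HISAT2, HTSeq, Trim Galore, DESeq2 and the mm9 build. The sources used here give neither the annotation nor the strand setting. The table is called DESeq2-normalised. DESeq2 size factors recomputed from it were 1 for both columns, which a normalised table would also give, so they do not tell the unit. In either column 0 whole numbers from 1 to 59 were skipped, as scaling up and rounding would do. The deposited values were used as unscaled counts, and a scaling close to 1 would not show in this check. Depth was 12236615 and 11675483 counts.

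Members were taken by symbol, and members, role groups and lists were chosen with earlier results of these data known. With 1 library per group edgeR's quasi-likelihood test has no residual degrees of freedom, so counts were compared without a test. The log2 ratio used a pseudocount of 5, the filter was a mean of 20 counts, and the threshold was 2-fold. Folds are plain ratios. Values of 1 member are not reported here, and it stays in the counts and medians. Intervals of ratios are 95% Clopper-Pearson intervals. A count of 0 was set at a floor of 3 counts for a fold. Genes named are Dnmt1, the members, and the 2 highest and 2 lowest of each pathway list that passed the filter. Lengths are those of the longest coding transcript in GENCODE M21 (46 of 46 members, 99.4% of the genes compared), overlaps come from the same annotation, copies from BLAST 2.17.0, and upstream bases from RefSeq, all on GRCm38, matched by symbol. The transcript used by the embryos may be another, which would move values per kb. A lowess curve (span 0.3) gave the length trend. Alternatives were other pseudocounts, filters, scalings, trends and thresholds, and the mean for the median. The intervals from halved counts were chosen after seeing the data. Software versions were R 4.3.3 with DESeq2 1.42.0 and edgeR 4.0.16, and Python 3.11.15 with scipy 1.17.1, statsmodels 0.14.6, pandas 2.3.3, numpy 2.4.6 and matplotlib 3.10.9.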

Additional observations from a re-analysis of the deposited data

How the results depend on the processing

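No paired analysis was possible because each group had 1 library, and for the same reason none was left out. Of 13 alternatives, none turned the direction of a member past the threshold. Hbs1l, Ttc37, Smg8 and Exosc8 stayed at least 2-fold apart under each of them that gave a log2 ratio. The filters, the 4-fold threshold, the mean for the median and the DESeq2 size factors of 1 cannot change a gene's log2 ratio. These settings say nothing about how well a call holds. Dis3 came inside the threshold with a pseudocount of 20, with equal totals and with either trend removed. Exosc2 did so with a pseudocount of 20, with equal totals without Rn45s and with either trend removed. Exosc3, Exosc5 and Exosc7 did so only with the length trend removed. Lsm2 did so with that or a pseudocount of 20, and Upf3b only with a pseudocount of 20. The 5 scalings moved the median of all genes by -0.07 to 0.09 on the log2 scale.

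With a pseudocount of 20, 4 of the 35 members were lower, against 12.8% of all genes compared. The median of the SKI and ribosome rescue genes was then 1.68. Without the filter 1682 genes (7.18%) were higher and 2122 (9.06%) lower. The medians were -0.034 (exosome nucleases), 1.41 (SKI and rescue) and 0.00 (Lsm). With a mean of at least 100 counts, 1 of 20 members was lower (Exosc7). Of 4233 genes, 395 (9.33%) were higher and 482 (11.4%) lower. The medians were 0.36 for the members, 0.76 for the nucleases and 0.94 for the Lsm genes, of which Lsm12 alone was left. With the length trend removed, 2 members were lower, against 13.7% of genes, and the medians were -0.48 (ring), 0.56 (nucleases) and 0.16 (Lsm). At a 4-fold threshold, 2 of the 35 members (Hbs1l and Ttc37) were higher and 1 (Exosc8) lower. Of the 7315 genes, 193 (2.64%) were higher and 330 (4.51%) lower. The nuclease median was 0.44 with equal totals, 0.60 with equal totals without Rn45s and 0.36 with the trend on mean count removed. Means in place of medians were 0.32 for the nucleases and 1.82 for SKI and rescue. Fewer genes were tested under the stricter filter, and without a filter the members under the minimum entered the medians. A larger pseudocount shrinks the log2 ratios of low counts, and a higher threshold calls fewer genes. For the other settings the cause was not tested. In 11 members, 7 of them Lsm genes, counts were too low to compare, and depth was not told apart from low expression.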
